A study of Mus musculus with 6 samples.

Results

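The genes of thyroid hormone activation and response, *Dio1*, *Dio2*, *Thra*, *Thrb* and *Thrsp*, were followed in RNA-Seq of inguinal white adipose tissue (iWAT) from *Hlx* transgenic mice and their littermate controls. They were picked by symbol from the deposited gene table, and all 5 were found among its 19445 gene loci, each on a single row. Hlx is a homeobox transcription factor, and the transgene places its cDNA behind the *aP2* (*Fabp4*) promoter, which is active in brown and white adipocytes. The strain was made in C57BL/6 × SJL hybrid embryos and backcrossed to C57BL/6, and how many founder lines contributed to these samples is not given in the sources used here. The samples were iWAT from 3 transgenic (TG) and 3 wild-type (WT) mice aged 12 weeks, with no treatment given. Values are FPKM, a read density per kilobase of transcript scaled to the mapped reads of the library.

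Thyroid hormone reaches tissues mostly as the prohormone T4. Deiodinases are selenoenzymes that remove iodine from it: the enzymes of *Dio1* and *Dio2* can form the active hormone T3, and that of *Dio3* inactivates both. T3 binds the nuclear receptors encoded by *Thra* and *Thrb*, which act on DNA mostly as partners of the retinoid X receptors. In brown fat, *Dio2* is a classical target of adrenergic cAMP signalling and raises local T3, which supports the expression of *Ucp1*. *Thrsp* (Spot 14) was found as a liver transcript that rises rapidly with thyroid hormone, and it serves in fatty acid synthesis in fat, liver and mammary gland.

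The RefSeq promoter table (GRCm38.p6) held 4 of the 5 genes, and windows of 250 bases before the transcript start are shown for the deiodinase gene that iWAT expressed, for *Thrsp*, and for 1 of the 2 start sites of *Thrb*. Capitals mark exact matches on either strand to a cAMP response element (TGACGTCA), to the core hexamer of nuclear receptor sites (AGGTCA) or to a CCAAT box (CCAAT), and these motifs do not overlap each other here. The windows are chr12:90739039-90739288 on the minus strand for *Dio2*, chr7:97417551-97417800 on the minus strand for *Thrsp* and chr14:17660710-17660959 on the plus strand for *Thrb*.
Dio2: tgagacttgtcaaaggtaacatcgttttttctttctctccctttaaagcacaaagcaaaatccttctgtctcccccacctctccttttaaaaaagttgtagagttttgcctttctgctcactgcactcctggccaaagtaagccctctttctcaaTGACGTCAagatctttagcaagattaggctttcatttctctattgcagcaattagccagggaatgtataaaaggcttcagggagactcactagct
Thrsp: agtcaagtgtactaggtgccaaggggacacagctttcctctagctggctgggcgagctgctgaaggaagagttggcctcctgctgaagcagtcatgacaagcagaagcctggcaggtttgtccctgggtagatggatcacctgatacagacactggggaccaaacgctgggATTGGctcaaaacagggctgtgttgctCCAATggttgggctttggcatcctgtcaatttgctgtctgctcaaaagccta
Thrb: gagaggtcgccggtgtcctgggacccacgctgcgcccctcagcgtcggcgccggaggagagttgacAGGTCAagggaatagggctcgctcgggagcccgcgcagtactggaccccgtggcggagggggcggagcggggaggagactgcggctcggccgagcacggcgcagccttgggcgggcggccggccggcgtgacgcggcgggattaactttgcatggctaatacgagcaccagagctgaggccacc
The cAMP element begins 95 bases before the RefSeq start of *Dio2* and is held by 1.55% of the 32851 promoter windows of this length in the table. RefSeq starts differ from the locus bounds given below. The *Dio2* window begins beyond the locus end at 90738438, and the *Thrb* window lies inside its locus, which starts at 17659382. The *Thrsp* window holds 2 CCAAT boxes, beginning 79 and 52 bases before the start, and 33.8% of all windows hold at least 1. The hexamer of the *Thrb* window is found in 14% of all windows. The windows of *Dio1* and of the second *Thrb* start hold none of the 3 motifs.

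*Hlx* itself, the check on the genotype, was at 96.2 ± 15.3 FPKM (SD, n = 3) in TG and 7.45 ± 0.637 FPKM (SD, n = 3) in WT mice. Depth in reads is unknown, and the steps between values under 0.3 FPKM placed the relative depth of the samples between 0.693 and 1.41, taking WT replicate 3 as 1. All 6 libraries are labelled male, yet *Xist*, the RNA of the inactive X chromosome, was at 20.2 to 33.6 FPKM in each, and the 28 Y-linked loci were listed at 0 in each, so the labelled sex went against the data in both genotypes alike. Summed adipocyte markers were at 28909 to 34257 FPKM in TG and 26259.7 to 33129 FPKM in WT mice. *Fabp4* alone had means of 26591 FPKM in TG and 21945 FPKM in WT mice, so the sum mostly follows that gene. Of the 8 adipocyte markers, 0 were called higher and 2 lower in TG mice. These were *Adipoq*, with means of 1363 FPKM in TG and 2481 FPKM in WT mice, and *Retn*, with 747 and 2987 FPKM. Skeletal muscle markers (9 of 10 matched) summed to 95.1, 689 and 136 FPKM in TG replicates 1, 2 and 3 and to 8.86, 144 and 41.1 FPKM in WT replicates 1, 2 and 3. Macrophage markers summed to 607 to 888 FPKM in TG and 1097 to 1502 FPKM in WT mice. Lymphocyte markers summed to 320 to 449 FPKM in TG and 431 to 650 FPKM in WT mice, epithelial markers to 94.5 to 192 and 139 to 217 FPKM, and endothelial markers to 183 to 192 and 189 to 193 FPKM. In such bulk tissue, fewer cells of a type and less RNA per cell cannot be told apart.

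Levels of these genes in iWAT ran from among the highest of all loci to the limit of detection. In WT mice *Thrsp*, *Thra*, *Thrb* and *Dio2* had mean levels of 3463, 49.1, 5.52 and 2.38 FPKM, and *Dio1* came last. TG means were 5397, 50.9, 7.07 and 1.69 FPKM, and in each of the 6 mice the genes stood in this order. *Thrsp* had a higher mean than 99.9% of the tested loci in WT mice, whereas *Dio2* was higher than 13.4% of them. *Dio2*, *Thra*, *Thrb* and *Thrsp* passed the expression filter, a mean over 1 FPKM in at least 1 genotype, and *Dio1* did not.

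None of the 4 tested members passed an adjusted p under 0.05 (limma on log2(FPKM + 1), Benjamini-Hochberg adjustment over 11692 loci), where 18.6% of all tested loci did, 11.6% higher and 7.03% lower in TG mice. At an unadjusted p under 0.05 there were 2 of 4, *Thrb* and *Thrsp*, against 36.2% of all tested loci. The same 2 genes were higher in every TG mouse than in every WT mouse, a pattern that 22.8% of all tested loci shared. The reverse, every TG mouse below every WT mouse, was seen in 0 of the 4 and in 20.1% of all tested loci, which makes 42.9% of loci without overlap in either direction. For single genes the exact permutation test (two-sided) has 20 arrangements, and its lowest possible p is 0.1.

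**Figure D1:**
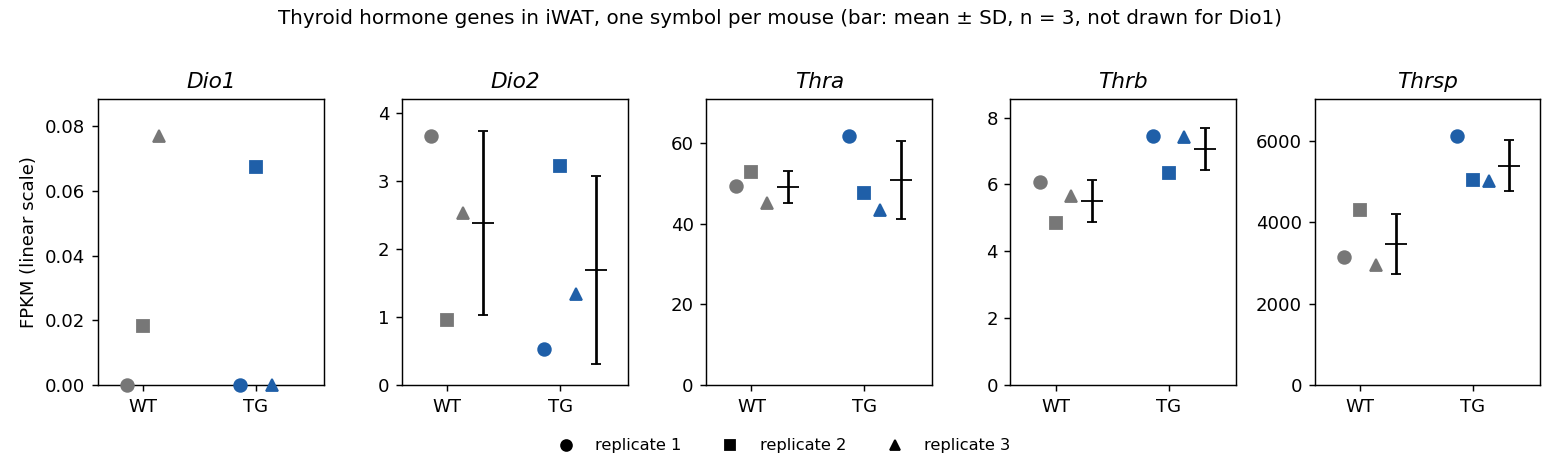
FPKM of *Dio1*, *Dio2*, *Thra*, *Thrb* and *Thrsp* (linear axes, each panel on its own scale) in the 3 WT and 3 TG mice, with the mean ± SD beside the points except for *Dio1*. The genotypes overlap for *Dio1*, *Dio2* and *Thra* and are apart for *Thrb* and *Thrsp*.

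*Dio2*, on chromosome 12 of mm10 from 90724552 to 90738438, had 0.521, 3.22 and 1.33 FPKM in TG replicates 1, 2 and 3 and 3.65, 0.953 and 2.53 FPKM in WT replicates 1, 2 and 3. The genotypes overlapped widely, and the highest mouse of each genotype was over 3 times its lowest. On the log2(FPKM + 1) scale TG differed from WT by -0.37, with a 95% interval from -1.40 to 0.66 and a standard error of 0.44 (limma, adjusted p = 0.576). The exact permutation p was 0.6. So wide an interval does not show that the level was alike. Its value came closest to 0, at -0.018, without TG replicate 1, and was -0.75 without TG replicate 2. TG replicate 2, which had the highest *Dio2* of the TG mice, also had the most skeletal muscle RNA, while WT replicate 1, with the highest *Dio2* of all, had the least. The part of muscle RNA in *Dio2* was not tested.

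*Dio1*, on chromosome 4 from 107291465 to 107307143, encodes the deiodinase of liver and kidney. It was listed at 0 in TG replicates 1 and 3 and in WT replicate 1, and was at 0.0674 FPKM in TG replicate 2 and at 0.0181 and 0.0769 FPKM in WT replicates 2 and 3. The highest value was under 0.1 FPKM, and a difference between genotypes was not detectable at this level (exact permutation test, two-sided p = 0.7). *Dio3*, whose enzyme inactivates the hormone, was listed at 0 in WT replicates 1 and 3, and the other mice had 0.0315 to 0.0477 FPKM. *Dio2* was thus the deiodinase gene with the highest FPKM in each of the 6 mice.

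*Ucp1*, the uncoupling protein of brown fat and a gene whose expression thyroid hormone supports, was read beside *Dio2*, a comparison chosen after the values were seen. *Ucp1* had 57.8, 17.5 and 35.5 FPKM in WT replicates 1, 2 and 3. These are in the same order as *Dio2*, and the ratio of *Ucp1* to *Dio2* FPKM was 15.8, 18.4 and 14.03 in the same mice. In TG replicates 1, 2 and 3 *Ucp1* had 634, 541 and 600 FPKM, the reverse of the order of *Dio2*, and the ratio was 1217, 168 and 450. The ratio was higher in each TG mouse than in each WT mouse. The *Ucp1* gap between the genotypes was wider, as a ratio, than the whole range of *Dio2*. The 2 together fixed this order, so it was not tested. The order within a genotype rests on 3 mice and was not tested.

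**Figure D2:**
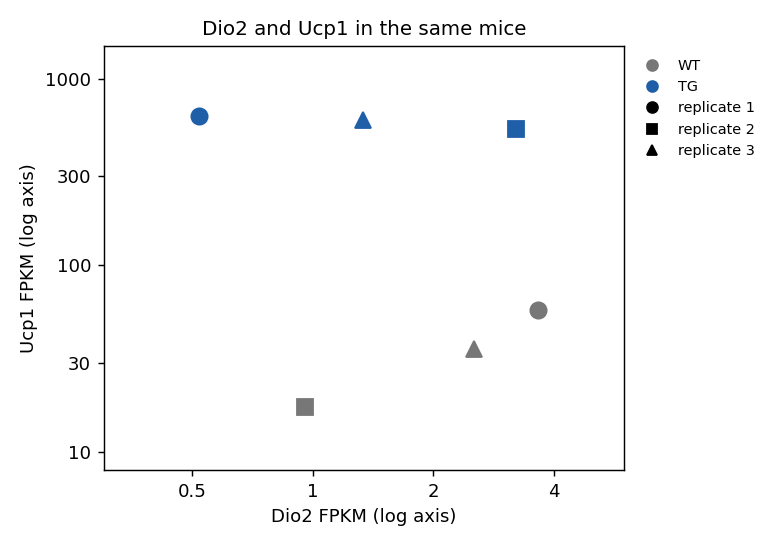
*Ucp1* FPKM against *Dio2* FPKM (log axes), 1 point for each of the 6 mice. The 3 WT mice lie along a rising line with ratios from 14.03 to 18.4, and the 3 TG mice lie at 541 to 634 FPKM of *Ucp1* over *Dio2* values from 0.521 to 3.22 FPKM.

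*Thra*, the more abundant receptor gene, lies on chromosome 11 from 98741831 to 98775360 in the table. It had 61.7, 47.6 and 43.3 FPKM in TG replicates 1, 2 and 3 and 49.4, 52.9 and 45.1 FPKM in WT replicates 1, 2 and 3. TG mice gave both the highest and the lowest value. The difference was 0.036 on the log2 scale, with a 95% interval from -0.29 to 0.37 and a standard error of 0.14 (limma, adjusted p = 0.875). The direction was not stable: it was -0.060 with quantile normalization and -0.11 without TG replicate 1. The table gives the same locus to *Nr1d1*, the clock repressor REV-ERBα, which is read from the opposite strand. GENCODE exons of *Thra* and *Nr1d1* share 263 bases, from 98768157 to 98768419, in the end of the *Thra* splice form whose protein does not bind hormone. The TruSeq v2 kit does not mark strand, so reads from this stretch cannot be assigned to either gene, and *Thra* FPKM does not part the splice forms. *Nr1d1* had 102, 85.8 and 104 FPKM in TG and 74.0, 74.3 and 83.1 FPKM in WT mice, a log2 fold change of 0.33 (limma adjusted p = 0.0697) with every TG mouse above every WT mouse.

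*Thrb*, on chromosome 14 from 17659382 to 18038713, had 7.44, 6.34 and 7.42 FPKM in TG replicates 1, 2 and 3 and 6.07, 4.84 and 5.64 FPKM in WT replicates 1, 2 and 3. Every TG mouse lay above every WT mouse, with a gap of less than 1 FPKM between the nearest mice. The means were 7.07 ± 0.630 and 5.52 ± 0.628 FPKM (SD, n = 3 each), a ratio of 1.28. The fitted difference in log2(FPKM + 1), which the pseudocount makes smaller at this level, was 0.31, with a 95% interval from 0.060 to 0.56 and a standard error of 0.11 (limma, adjusted p = 0.0829). It stayed between 0.23 and 0.38 in the fits that dropped 1 mouse, and the call was gained in 1 of 14 other settings, with sample weights (adjusted p = 0.0443, range over the settings 0.0443 to 0.217).

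*Thra* made up 89.2%, 88.2% and 85.4% of the summed *Thra* and *Thrb* FPKM in TG replicates 1, 2 and 3 and 89.1%, 91.6% and 88.9% in WT replicates 1, 2 and 3. The genotypes overlapped, and the difference of -2.24 percentage points was within the spread between mice (exact permutation test, two-sided p = 0.3). It ranged from -3.05 to -1.11 in the fits that dropped 1 mouse, with -1.11 without TG replicate 3 and -1.35 without WT replicate 2. A different quantity, the part of *Thra* in the summed log2(FPKM + 1) values of *Thra* and *Thrb*, differed by -2.29 percentage points. Its exact permutation p was 0.1, the lowest possible. It is a ratio of logarithms and not the FPKM share on another scale.

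*Thrsp*, on chromosome 7 from 97412957 to 97417510, had 6116, 5047 and 5027 FPKM in TG replicates 1, 2 and 3 and 3141, 4305 and 2942 FPKM in WT replicates 1, 2 and 3. The lowest TG mouse was above the highest WT mouse, WT replicate 2. The means were 5397 ± 623 FPKM in TG and 3463 ± 736 FPKM in WT mice (SD, n = 3 each), a ratio of 1.56. The fitted difference in log2(FPKM + 1) was 0.65, with a 95% interval from 0.13 to 1.18 and a standard error of 0.22, and it missed the threshold (limma, adjusted p = 0.0804). The estimate was 1.06 with quantile normalization, and 0.55 to 0.82 in the fits that dropped 1 mouse. The call was gained in 1 of 14 other settings, without the variance trend (adjusted p = 0.0375), and the adjusted p ranged from 0.0375 to 0.890 over them. Relative to *Plin1*, the perilipin that coats adipocyte droplets, *Thrsp* was at 7.27, 6.79 and 7.40 in TG replicates 1, 2 and 3 and between 3.98 and 6.14 in WT mice. *Ndufc2*, a complex I gene whose exons lie 5135 bases from those of *Thrsp*, was higher in TG mice, with a log2 fold change of 0.78 (limma adjusted p = 0.0113).

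Of the lipogenic genes known to respond to thyroid hormone, *Acly* passed the test. *Acly*, which makes cytosolic acetyl-CoA from citrate, rose from 1028 ± 270 to 1873 ± 289 FPKM (SD, n = 3 each), with a fitted log2(FPKM + 1) difference of 0.89 (limma adjusted p = 0.0396). That call was lost in 8 of 14 other settings, with an adjusted p of up to 0.177. *Acaca*, the acetyl-CoA carboxylase that commits carbon to fatty acids, had 817 ± 8.93 FPKM in TG and 597 ± 116 FPKM in WT mice, a log2 fold change of 0.47 (adjusted p = 0.0774), with no overlap between the genotypes. *Me1*, the malic enzyme that supplies NADPH, had 654 ± 109 and 564 ± 90.7 FPKM in overlapping groups (log2 fold change 0.21, adjusted p = 0.416).

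*Mid1ip1*, a paralog of *Thrsp* that promotes acetyl-CoA carboxylase polymerization, had 83.3, 36.4 and 35.7 FPKM in TG and 32.5, 62.2 and 23.6 FPKM in WT replicates 1, 2 and 3, with overlapping groups (log2 fold change 0.38, adjusted p = 0.551). *Srebf1*, the gene of the lipogenic factor SREBP-1, differed by 0.033 on the log2 scale (adjusted p = 0.939). The direction was not stable for either gene: with 1 mouse dropped, the estimate ranged from -0.011 to 0.76 for *Mid1ip1* and from -0.24 to 0.21 for *Srebf1*. *Fasn*, the fatty acid synthase, was listed at 0 in TG replicate 2, beside 4261 and 3632 FPKM in TG replicates 1 and 3 and 2566 to 2648 FPKM in WT mice. It was the only locus of that library listed at 0 while all other mice were over 20 FPKM. Without that library the *Fasn* log2 fold change was 0.59 (limma adjusted p = 0.0831).

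The order of the mice within each genotype was compared over these genes and some others of the lists after their values were seen. WT replicate 2 was the highest WT mouse for *Thrsp*, *Mid1ip1*, *Me1*, *Acly*, *Acaca* and *Srebf1*, and the lowest WT mouse for *Dio2*, *Ucp1* and *Thrb*. It was also the highest for *Thra*, *Tshr* and *Slc3a2*, and the lowest for *Pck1*, another gene known to respond to thyroid hormone. TG replicate 1 was the highest TG mouse for *Thrsp*, *Mid1ip1*, *Acly*, *Acaca* and *Srebf1*, and the lowest TG mouse for *Dio2*. It was also the highest for *Thra* and *Tshr*, and the lowest for *Pck1* and *Slc3a2*. It was the lowest TG mouse for *Me1*, however, and, unlike WT replicate 2, the highest of its genotype for *Ucp1* and *Thrb*. *Thrsp* and *Dio2* were therefore at opposite ends of their genotype in these 2 mice. WT replicate 2 had the greatest relative depth, at 1.41, and TG replicate 1 was at 0.712. The order of the mice is a description of 6 mice and was not tested.

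**Figure D3:**
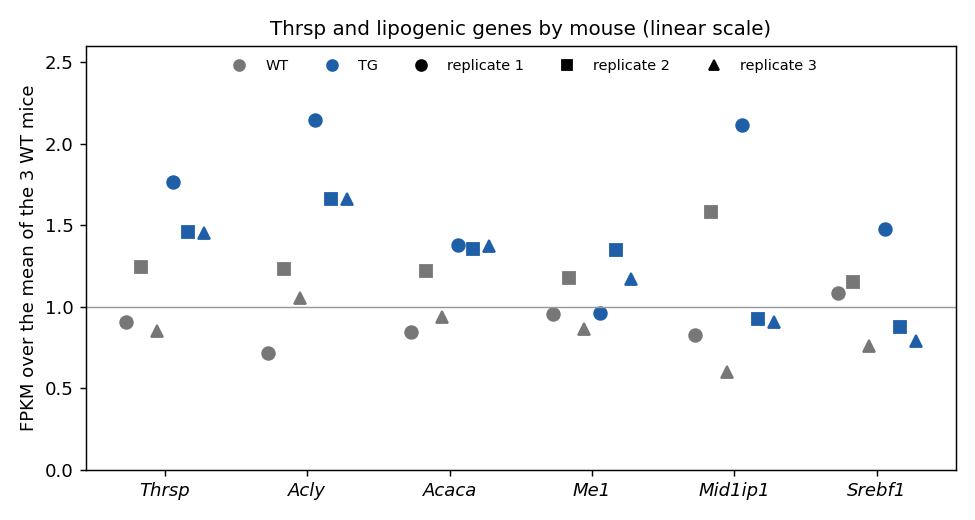
FPKM of *Thrsp* and 5 lipogenic genes in each of the 6 mice, divided by the mean of the 3 WT mice (linear axis). *Thrsp*, *Acly* and *Acaca* show no overlap between genotypes, *Me1*, *Mid1ip1* and *Srebf1* overlap, and WT replicate 2 is the highest WT mouse for each gene.

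Beyond the members, 50 other genes of the pathway were listed by role, and 46 of them passed the filter. Among the 46, 6 were higher and 3 were lower at an adjusted p under 0.05 (limma), or 19.6% called against 18.6% of all tested loci. Their median log2 fold change was 0.036, beside -0.011 over all tested loci. The listed pathway was thus called at the background rate, and the largest changes were those of single genes.

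Of 7 transporter genes that can carry thyroid hormone into cells, 5 were tested, 0 were higher and 1 was lower, with 1 also the count at an unadjusted p under 0.05. That made 20% called against 18.6% of all tested loci, of which 36.2% had an unadjusted p under 0.05. *Slc3a2*, the heavy chain that pairs with the amino acid carriers of *Slc7a5* and *Slc7a8*, had 31.8, 42.0 and 31.9 FPKM in TG and 74.5, 76.8 and 59.7 FPKM in WT replicates 1, 2 and 3. Each TG mouse lay below each WT mouse, by -0.98 on the log2 scale with a standard error of 0.15 (limma, adjusted p = 0.00568), called in all 14 other settings. Macrophage markers, of which 5 of 8 were lower at an adjusted p under 0.05, were also lower in TG mice, and their part in *Slc3a2* was not tested. *Slc7a5* and *Slc7a8* were not called, with log2 fold changes of -0.043 and -0.29 (limma adjusted p = 0.904 and 0.217).

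Of 12 genes for deiodinase supply and control, 10 were tested, 1 was higher and 1 was lower, or 20% called against 18.6% of all tested loci. At an unadjusted p under 0.05 there were 6 of 10 (limma), 5 of them with higher values in TG mice, against 36.2% of all tested loci. *Tshr*, the receptor of thyrotropin, which adipocytes express and which couples to cAMP, had the lowest estimate of the tested pathway genes with a value above 0 in every mouse. It had 22.0, 16.5 and 13.7 FPKM in TG and 52.5, 58.0 and 53.1 FPKM in WT replicates 1, 2 and 3, so that the highest TG mouse was under 50% of the lowest WT mouse. TG differed by -1.62 on the log2 scale, with a 95% interval from -1.99 to -1.24 (limma, adjusted p = 0.00134), called in all 14 other settings. Relative to *Plin1*, which had 755 ± 81.6 FPKM in TG and 729.6 ± 24.7 FPKM in WT mice (SD, n = 3 each), *Tshr* was at 0.0261, 0.0222 and 0.0202 in TG and 0.0702, 0.0827 and 0.0717 in WT replicates 1, 2 and 3. Relative to *Adipoq*, 1 of the 2 of 8 adipocyte markers that were lower in TG mice, the gap was narrower, with 0.0162, 0.0113 and 0.0107 in TG and 0.0180, 0.0237 and 0.0255 in WT mice. The other lower marker, *Retn*, differed by -2.02 on the log2 scale (limma adjusted p = 0.00346), a larger fall than that of *Tshr*. *Tshr* relative to *Retn* was not examined. *March6*, a ubiquitin ligase that marks the *Dio2* enzyme for destruction, was higher, at 18.7 ± 1.504 against 14.8 ± 0.615 FPKM (SD, n = 3 each), with a fitted log2(FPKM + 1) difference of 0.32 (adjusted p = 0.0390). That call was lost in 6 of 14 other settings, up to an adjusted p of 0.122.

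Of the 14 receptor partners and coregulators, all were tested, 0 were higher and 1 was lower, with 3 at an unadjusted p under 0.05 (limma). That made 7.14% called against 18.6% of all tested loci, of which 36.2% had an unadjusted p under 0.05. *Rxra*, the retinoid X receptor that pairs with thyroid hormone receptors, fell from 37.2, 36.5 and 37.9 FPKM in WT to 29.2, 25.4 and 23.2 FPKM in TG replicates 1, 2 and 3. The genotypes were apart, by -0.51 on the log2 scale with a standard error of 0.10 (adjusted p = 0.0133), called in all 14 other settings. The corepressor genes *Ncor1* and *Hdac3* had log2 fold changes of -0.14 and -0.029 (adjusted p = 0.366 and 0.851).

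**Figure D4:**
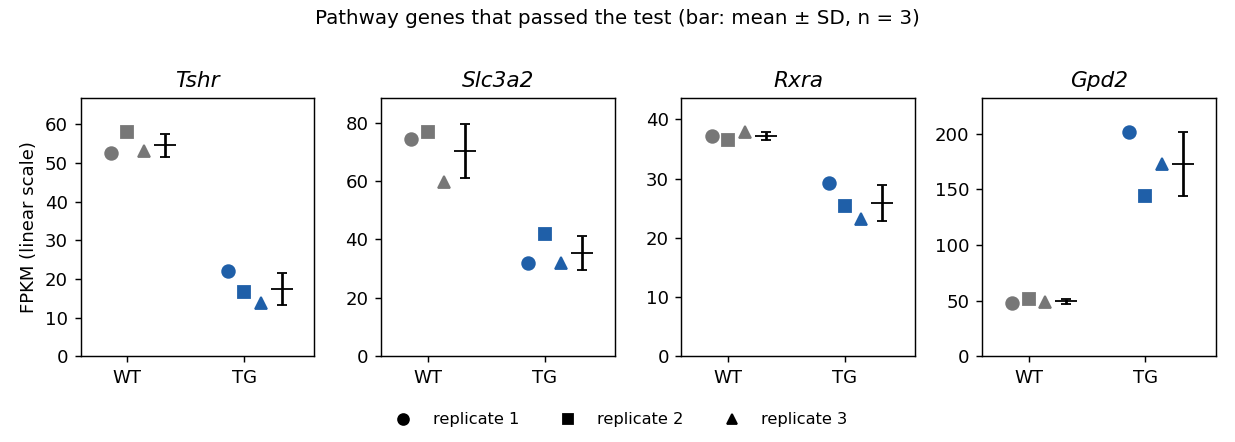
FPKM of *Tshr*, *Slc3a2*, *Rxra* and *Gpd2* (linear axes) in the 3 WT and 3 TG mice, with the mean ± SD beside the points. *Tshr*, *Slc3a2* and *Rxra* are lower and *Gpd2* is higher in each TG mouse than in each WT mouse.

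Of the 17 genes known to respond to thyroid hormone, all were tested, 5 were higher and 0 were lower, with 8 at an unadjusted p under 0.05 (limma), 7 of them higher. That made 29.4% called, against 18.6% of all tested loci, 11.6% higher and 7.03% lower. An unadjusted p under 0.05 was found for 36.2% of all tested loci. The difference from these shares was not tested. The 5 called genes were *Ucp1*, *Gpd2*, *Acly*, *Ppargc1a* and *Atp2a2*, genes of thermogenesis, mitochondria, lipid synthesis and calcium pumping. *Ucp1* rose by 4.12 on the log2 scale, with a standard error of 0.38 (adjusted p = 0.00106). *Gpd2*, the mitochondrial glycerol-3-phosphate dehydrogenase, rose from 49.3 ± 1.89 to 173 ± 29.0 FPKM (SD, n = 3 each), with a fitted log2(FPKM + 1) difference of 1.78 (adjusted p = 0.000581). *Ppargc1a*, the coactivator PGC-1α, rose from 3.43 ± 0.277 to 5.30 ± 0.377 FPKM (SD, n = 3 each), with a fitted log2(FPKM + 1) difference of 0.51 (adjusted p = 0.0122). *Ucp1*, *Gpd2* and *Ppargc1a* were called in all 14 other settings. *Atp2a2*, the SERCA2 calcium pump, rose by 0.35 (adjusted p = 0.0452), a call lost in 9 of 14 other settings. *Klf9*, a direct target of the receptors in many tissues, was not called and had lower values in TG mice, at 23.1, 23.0 and 25.6 FPKM against 32.8, 26.1 and 33.4 FPKM in WT mice (log2 fold change -0.35, adjusted p = 0.0713). A call as lower was gained in 2 of 14 other settings (limma). These were quantile normalization (-0.40, adjusted p = 0.0486) and the fit without WT replicate 2 (-0.46, adjusted p = 0.0337). *Hr*, another direct target in the list, had 13.7 ± 2.05 FPKM in TG and 12.1 ± 3.58 FPKM in WT mice, in overlapping groups (log2 fold change 0.20, limma adjusted p = 0.516, from -0.020 to 0.39 with 1 mouse dropped).

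**Figure D5:**
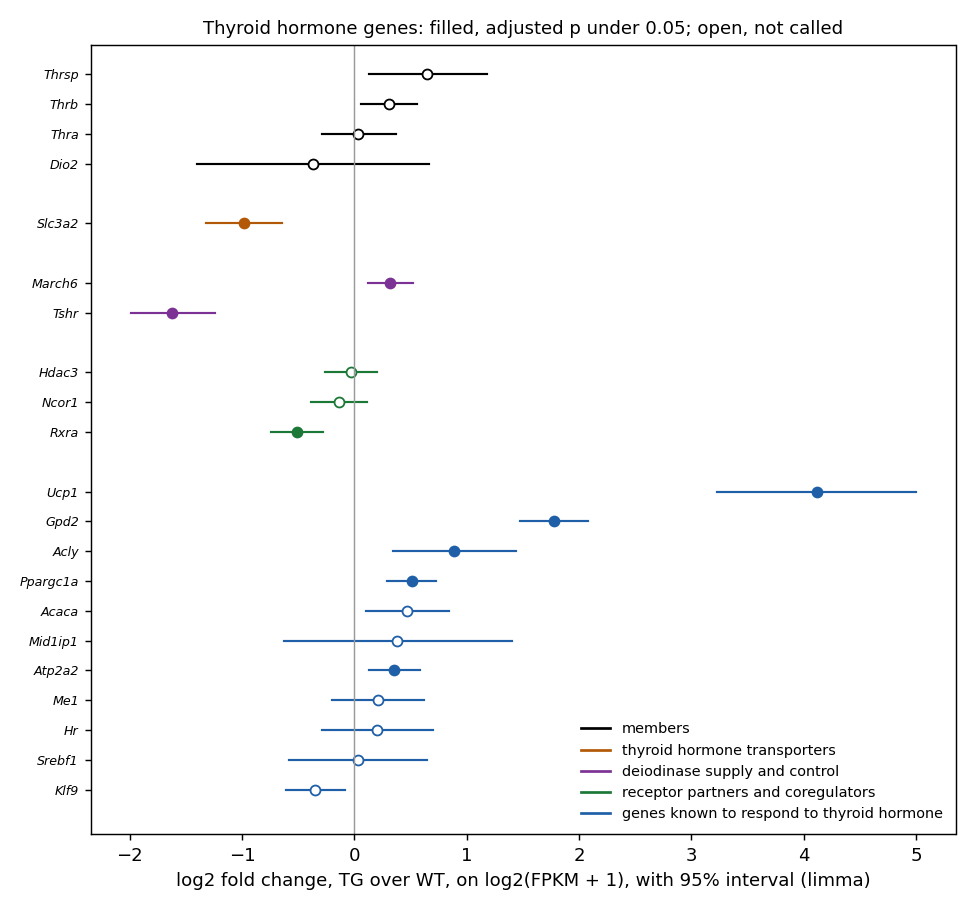
Log2 fold changes (TG over WT, on the log2(FPKM + 1) scale) with 95% limma intervals for 4 members and the tested pathway genes named in the text, grouped by role, with filled points for an adjusted p under 0.05. *Fasn*, listed at 0 in a library, is left out, as are *Slc7a5*, *Slc7a8* and *Pck1*. The intervals of *Dio2* and *Thra* span 0, those of *Thrb* and *Thrsp* lie above 0 without passing the adjusted threshold, and *Tshr* and *Ucp1* have the lowest and highest estimates.

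The tested loci whose values across the 6 mice were most like each member were ranked by Pearson correlation of log2(FPKM + 1), as a description that depends on the genotypes the samples share. For *Dio2* they were *Olfml2b*, *Hivep3* and *Loxl1* (r = 0.984, 0.980 and 0.980), all with overlapping genotypes and a log2 fold change between -0.16 and -0.072. For *Thra* they were *Sbds*, *Atp9a* and *Zmym3* (r = 0.999, 0.991 and 0.976). For *Thrb* they were *Fam120a*, *Arl8b* and *Rn45s* (r = 0.998, 0.997 and 0.991), and *Rn45s*, the ribosomal RNA precursor, was itself higher in TG mice, with 184, 136 and 182 FPKM against 119.8, 90.2 and 117 FPKM (log2 fold change 0.61, limma adjusted p = 0.0425). The part of ribosomal RNA in *Thrb* was not tested. For *Thrsp* they were *Dusp14*, *Spp1* and *Gss* (r = 0.998, 0.995 and 0.994). These were low genes, at 0.644 to 3.57, 0.277 to 1.24 and 0.642 to 3.15 FPKM over the 6 mice. *Spp1* and *Gss* passed the filter only through their TG means. *Dusp14* and *Gss* were called higher in TG mice (limma adjusted p = 0.0265 and 0.039), and *Spp1* was not (0.0697). The number of loci with r over 0.9 was 95 for *Dio2*, 97 for *Thra*, 493 for *Thrb* and 621 for *Thrsp*.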

How the data were processed

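Libraries were made with the TruSeq v2 kit from iWAT RNA of each mouse. The submitters' processing notes name CASAVA 1.8.2, TopHat2 2.0.9, Bowtie2 2.1.0 and Cufflinks 2.2.1 and the build mm10, and the authors deposited FPKM for each locus and mouse. Cufflinks spreads the single-end reads over transcripts by estimation. The Cuffdiff test of the study needs read alignments and was not run here. The gene annotation is not given in the sources used here. All 6 sample columns were used.

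Loci with a mean over 1 FPKM in at least 1 genotype were tested on log2(FPKM + 1) with limma 3.58.1 in R 4.3.3. Genotype was the only term, eBayes had a variance trend, and two-sided p-values were adjusted by Benjamini-Hochberg. The procedure was also run on simulated data with independent normal noise for each locus. Such noise is what limma assumes, so that run cannot show how values such as the *Fasn* 0 affect the calls. Fold changes on the log2(FPKM + 1) scale understate those of low genes. Single values were compared with exact permutation tests over 20 arrangements (scipy 1.17.1), and figures were drawn with matplotlib 3.10.9. Intervals are limma's 95% intervals. Nothing says that samples of a genotype came from separate litters, so p-values measure the spread between these mice. Locus starts count from 0 in the table and were raised by 1. Genes on several rows, such as *Gpd2*, were taken from the row with the highest mean. The members and lists were chosen with earlier results of these data known. The rule for named genes was all members, the called genes of each list (up to 5 a direction), *Dio3*, *Klf9*, *Ucp1*, *Nr1d1* and *Ndufc2*, and the 3 loci most correlated with each member, with *Hlx* as the check. Some genes of the lists are counted but not reported by name here. Other genes named were chosen after their values were seen. Alternatives were another pseudocount, other filters, scalings, variance models and weights, a replicate block, and leaving out each mouse.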

Additional observations from a re-analysis of the deposited data

How the results depend on the processing

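The members stayed without a call under most of 14 alternatives. *Dio2* was called under none, *Thrb* only with sample weights (log2 fold change 0.36, adjusted p = 0.0443) and *Thrsp* only without the variance trend (0.65, adjusted p = 0.0375). *Thra* turned negative with quantile normalization (-0.060), with sample weights (-0.092) and, of the mice left out in turn, without TG replicate 1 or WT replicate 3, over a range from -0.11 to 0.14. *Fasn* ranged from -5.44 to 0.59 with each mouse left out, and was positive only without TG replicate 2, where it is listed at 0. The difference in the *Thra* share of receptor FPKM stayed negative, from -3.05 to -1.11 percentage points with each mouse left out. The share of summed log2(FPKM + 1) values, a different quantity, differed by -2.29 percentage points (exact permutation p = 0.1).

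Without the filter, 748 loci were higher and 381 lower, and 3 pathway genes were higher. At an adjusted p under 0.01, 569 loci were higher, 199 lower, and 2 pathway genes higher. With each mouse left out in turn, 780 to 1295 loci were higher, 329 to 906 lower, and 3 to 5 pathway genes higher (3 without TG replicate 3 or WT replicate 3). With the replicate number as a block, 1230 loci were higher and 656 lower, 5 pathway genes were higher and 3 lower, and no member was called (*Thrb* adjusted p = 0.0633, *Thrsp* 0.0958). Whether the numbers pair the mice is unknown. Deviations of same-numbered mice from their genotype means correlated weakly (r = 0.0129, 0.0344 and 0.0701), and other pairs ran from -0.186 to 0.135. Deviations from a mean of 3 mice are bound to balance, so these values cannot decide it. Every member is on 1 row, so summing rows could change nothing. Depth in reads is unknown, which limits *Dio1* and *Dio3*, at under 0.1 FPKM.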
